A study of Mus musculus with 6 samples.

Results

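The BCL2 family genes described here are 10 genes whose products start or hold back death through the mitochondria. They were chosen by symbol, matched through the GENCODE annotation to Ensembl IDs, and make up 10 of the 54532 gene IDs in the count files. All 10 passed the filter on low counts, as did 14008 genes in all. RNA was sequenced from heads of mouse embryos at embryonic day 8.5. The tested embryos carry a deletion of Sf3b4 in neural crest cells. Sf3b4 encodes a subunit of the spliceosome that helps recognise the branch site of introns, and the crest is the migratory population that builds much of the face. Their sample titles call them homozygous nulls, while the genotype entry and the design text limit the loss to the crest. The sources used here do not name the Cre line that drove the deletion. The comparison group is wild type for Sf3b4. Each of the 3 pools per genotype combined 3 heads, taken before any malformation showed.

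Cells commit to mitochondrial death when the effectors BAX and BAK1 open the outer mitochondrial membrane and release cytochrome c, which activates caspases. The protective proteins BCL2, BCL-XL (from Bcl2l1) and MCL1 hold the effectors in check. BH3-only proteins relay stress to this switch by binding the protective proteins or the effectors. Bax, Bbc3 (PUMA) and Pmaip1 (NOXA) are textbook targets of the transcription factor p53, and p53-dependent death of neural crest is a known feature of mouse models of craniofacial disorders.

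Pools held 7420956 to 12251910 counts in mutants and 6930827 to 11797020 in wild type. Mutant replicate 3 and wild-type replicate 1 held 1 read each on the Y-linked genes Ddx3y, Uty, Kdm5d and Eif2s3y, against 344 to 664 in the other 4 pools. Each test of a single gene was therefore also run in those 4 pools. Sf3b4 itself had 56.1, 64.2 and 60.9 CPM in the mutant pools, against 77.7, 72.8 and 63.9 CPM in wild type (CPM are read counts brought to a common library size with TMM factors). The log2 fold change was -0.24 (SE 0.0918) and missed the threshold (adjusted p = 0.128 by edgeR). Gene-level counts cannot show the deleted exons. Markers of neural tube, mesoderm, surface ectoderm and endothelium were all detected, with 289 to 330 CPM summed over the neural tube genes Sox2, Otx2 and Pax6 in mutants and 280 to 309 in wild type. The crest markers Sox10, Foxd3 and Tfap2b summed to 40.7, 45.0 and 58.8 CPM in mutant pools and 101, 98.3 and 82.7 CPM in wild type, and Sox10 and Tfap2b fell while Foxd3 (log2 fold change -0.55) did not pass. Of the endothelial markers Kdr, Cdh5 and Pecam1, Kdr rose (0.31), and their sums were 173 to 188 CPM in mutants and 142 to 164 CPM in wild type. The surface ectoderm markers Epcam, Krt8 and Krt18 summed to 328, 364 and 397 CPM in mutants and 306, 282 and 313 CPM in wild type, with no overlap, though none passed. Summed primitive erythroid markers (73.2 to 161 CPM in mutants, 97.7 to 247 CPM in wild type) and heart markers (at most 19.2 CPM in mutants, at most 31.5 CPM in wild type) overlapped. The part of these markers in the results below was not tested. The 3 macrophage and blood markers (Ptprc, Csf1r, Adgre1) summed to 3 to 15 counts per mutant pool and 1 to 5 per wild-type pool, and none was tested. In bulk heads, a change in how many cells of a type are present and a change in RNA per cell cannot be told apart.

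Among the 10 family members, the pro-death genes Pmaip1, Bbc3 and Bax rose in mutant heads, the pro-death gene Bmf fell, and the other 6 did not pass the test. No protective member passed. Calls rest on edgeR's quasi-likelihood test with p adjusted over all 14008 tested genes (Benjamini-Hochberg, under 0.05). By that rule 6.52% of tested genes changed, 2.65% upward and 3.88% downward, beside 4 of the 10 members. The members were chosen with earlier results of these data known. Counts of members here therefore describe them and do not test them against other genes. The median log2 fold change was 0.12 over the members and 0.0023 over all tested genes. By role, 1 of 2 effectors rose, 2 of 5 BH3-only genes rose and 1 fell, and 0 of 3 protective genes passed. The 3 rises were called in every alternative tried, including each pool left out. Mutant and wild-type pools did not overlap in 7 members, a separation seen in 28.3% of tested genes. Mutant pools were the higher in 5 of them (13.8% of tested genes) and the lower in 2 (14.4%).

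**Figure D1:**
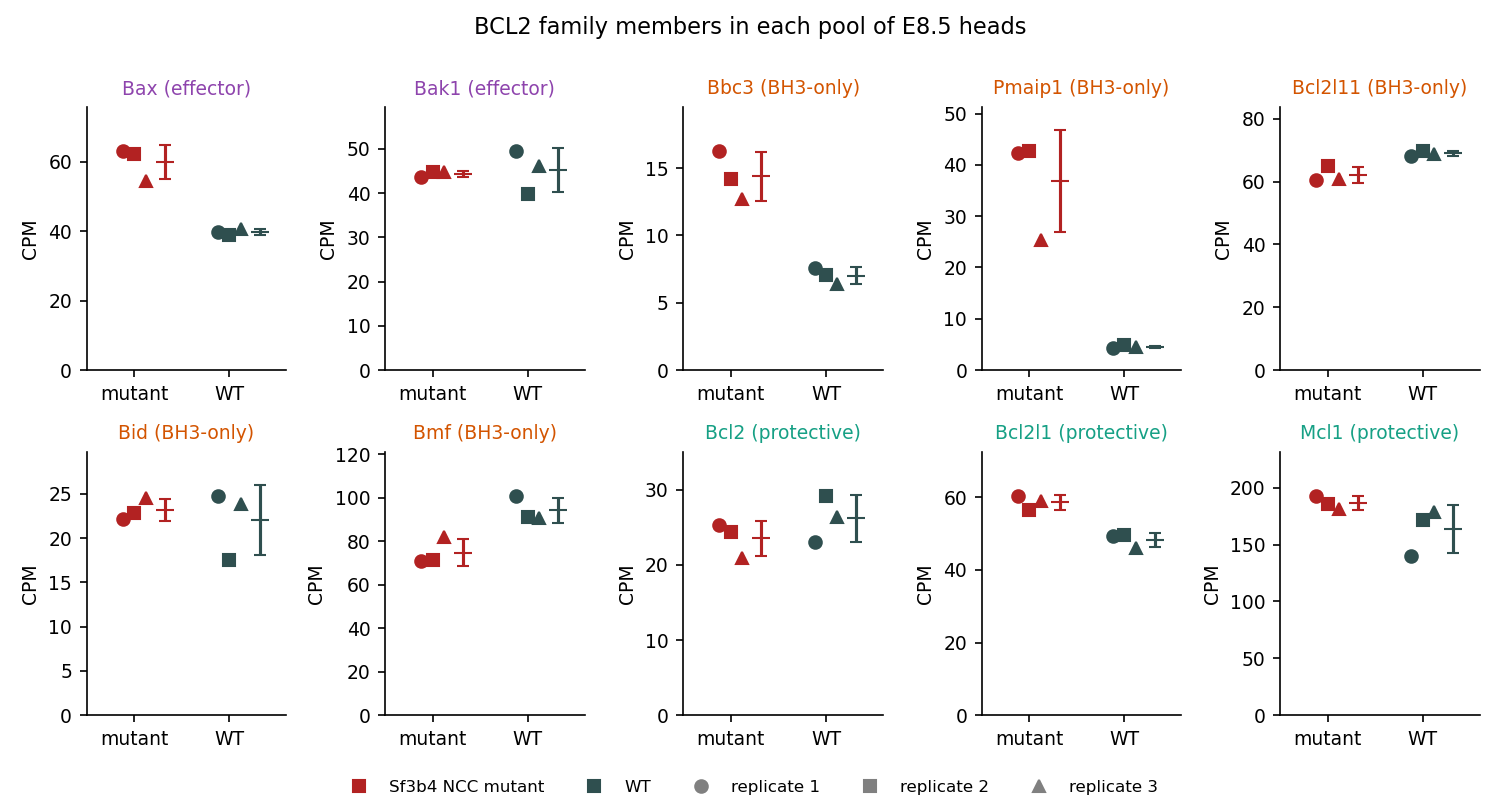
CPM (TMM-scaled read counts) of each BCL2 family member in the 3 Sf3b4 NCC mutant pools and the 3 WT pools, with the symbol shape giving the replicate number and the bar showing mean ± SD. Pmaip1, Bbc3 and Bax are higher in all mutant pools, Bmf is lower in all of them, and the pools of Bak1, Bid and Bcl2 overlap.

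Pmaip1 (ENSMUSG00000024521, mm10 chromosome 18, 66458533 to 66465565, plus strand) encodes NOXA, a BH3-only protein that binds chiefly MCL1. It had 42.3, 42.8 and 25.3 CPM in the mutant pools, against 4.36, 4.80 and 4.48 CPM in wild type. All mutant pools lay well above wild type, and mutant replicate 3 lay below the other 2, outside their 95% counting intervals (38.7 to 46.1 and 38.8 to 47.2 CPM, against 21.8 to 29.2). The means were 36.8 ± 9.95 and 4.55 ± 0.231 CPM (SD, n = 3 pools each), an 8.20-fold difference (95% interval 5.94 to 11.3). On the log2 scale this is 3.04 (SE 0.212), rank 19 from the top of all tested genes, with an adjusted p of 3.12e-05 by edgeR. In the 4 pools with Y-linked reads it was 3.20. Counting intervals here and below cover counting error only.

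Bbc3 (ENSMUSG00000002083, mm10 chromosome 7, 16308393 to 16318205, plus strand) encodes PUMA, a BH3-only protein that can bind every protective member. Its mutant pools held 16.3, 14.2 and 12.7 CPM, against 7.60, 7.06 and 6.37 CPM in wild type. The lowest mutant pool was well above the highest wild-type pool. Bbc3 was 2.07-fold higher in mutants (95% interval 1.66 to 2.58), or 1.05 on the log2 scale (SE 0.151, adjusted p = 0.000706 by edgeR). Its counts were low, at 94 to 198 reads per mutant pool and 50 to 82 per wild-type pool.

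Bax (ENSMUSG00000003873, mm10 chromosome 7, 45461697 to 45466898, minus strand) encodes the effector that moves from the cytosol to the mitochondrion in dying cells. It stood at 63.2, 62.2 and 54.4 CPM in the mutant pools and at 39.8, 38.8 and 40.6 CPM in wild type. The wild-type pools were nearly alike (coefficient of variation 2.17%) and every mutant pool exceeded them. The 1.51-fold difference (95% interval 1.33 to 1.72) was 0.59 on the log2 scale (SE 0.0887, adjusted p = 0.000944 by edgeR). Exons of Bax share 12.2% of their bases with a same-strand gene model, Gm45808, so a small part of its reads could have been assigned differently.

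In Bax, Bbc3 and Pmaip1 alike, mutant replicate 3 was the lowest mutant pool. It is also the mutant pool with the smallest total and the one without Y-linked reads, and its summed crest markers were the highest of the mutant pools. The part of these features in the lower values was not tested. Without mutant replicate 3 the log2 fold changes were 0.66 for Bax, 1.12 for Bbc3 and 3.23 for Pmaip1.

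The sequence upstream of Bax is shown because Bax is the risen member with a match to the p53 response element in its promoter window. The windows come from RefSeq (GRCm38.p6, the assembly of mm10), reach from 250 bases before to 50 after each annotated start, and covered 9 of the 10 members, all but Pmaip1, in 16 windows. The motif searched was the p53 response element, made of 2 p53 decamers at most 13 bases apart with at most 2 mismatches and the core C and G of each decamer kept, on both strands, since the decamer is its own reverse complement. Of the 16 windows of these 9 members 1 held it, that of Bax, while 4.09% of all 32851 promoter windows did. With 1 match in 16 windows, the members cannot be set apart from that share. Capitals mark the decamers, and the run below is chr7:45466899-45467148 on the minus strand, ending at the base before the start site.
Bax: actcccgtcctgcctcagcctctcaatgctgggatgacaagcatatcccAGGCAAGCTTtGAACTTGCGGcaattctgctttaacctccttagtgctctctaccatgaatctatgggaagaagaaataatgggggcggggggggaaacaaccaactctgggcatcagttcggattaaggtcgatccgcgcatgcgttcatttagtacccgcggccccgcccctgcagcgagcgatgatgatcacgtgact
A single exact p53 decamer, present in 8.36% of all windows, was found in 1 further window, that of a start site inside Bmf (chr2:118544781-118544810, minus strand), the member that fell.
Bmf: cccaagtgaaGGGCTTGCCTcttgccgaat
The first capital lies 201 bases before the start site in Bax. The best matches in Bbc3, which rose, and in Bcl2l1, which was not called, each had 3 mismatches. These are matches of letters, and the windows do not reach introns or distal sites.

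None of the other 3 BH3-only genes rose. Bmf (ENSMUSG00000040093, mm10 chromosome 2, 118528757 to 118549687, minus strand), whose product is known to be held on the actin cytoskeleton in healthy cells, had 71.0, 71.6 and 81.9 CPM in the mutant pools, against 101, 91.4 and 90.6 CPM in wild type. The mutant pools all lay below wild type, with mutant replicate 3 nearest to it. Bmf was 0.792-fold of wild type (95% interval 0.701 to 0.894), or -0.34 on the log2 scale (SE 0.0832, adjusted p = 0.0247 by edgeR). Its call did not hold when mutant replicate 1 (edgeR adjusted p = 0.176), mutant replicate 2 (0.139) or wild-type replicate 2 (0.0700) was left out, while the fold change stayed between -0.40 and -0.28 with any 1 pool left out.

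Bcl2l11 (ENSMUSG00000027381, mm10 chromosome 2, 128126038 to 128162547, plus strand) encodes BIM, which binds all protective members and activates BAX. It had 60.6, 64.9 and 60.8 CPM in the mutant pools and 68.3, 69.9 and 68.9 CPM in wild type. The groups did not overlap, but the log2 fold change of -0.15 (95% interval -0.32 to 0.01) did not pass (edgeR adjusted p = 0.258). Bid (ENSMUSG00000004446, mm10 chromosome 6, 120891930 to 120916853, minus strand), whose product links death receptors to mitochondria after caspase-8 cleaves it, had 22.2, 22.9 and 24.6 CPM in mutants, against 24.8, 17.5 and 23.9 CPM in wild type. Its groups overlapped, with wild-type replicate 2 lowest of all pools, and the interval of its log2 fold change ran from -0.21 to 0.32 (edgeR adjusted p = 0.835). Bid shares 17.7% of its exonic bases with Bcl2l13 on the opposite strand, and the sources used here do not say whether counting used strand.

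The second effector did not pass. Bak1 (ENSMUSG00000057789, mm10 chromosome 17, 27019810 to 27029009, minus strand), whose product sits on mitochondria in healthy cells, had 43.6, 44.8 and 44.7 CPM in mutants, against 49.6, 39.7 and 46.2 CPM in wild type. The mutant values fell inside the wild-type range. The log2 fold change was -0.03 (95% interval -0.23 to 0.17, edgeR adjusted p = 0.87). Of Bak1's exonic bases 18.2% are shared with the opposite-strand gene Ggnbp1. Within a pool, the ratio of Bax to Bak1 per kb of exon was 2.21, 2.12 and 1.86 in mutants and 1.23, 1.49 and 1.34 in wild type, so every mutant pool had more Bax per Bak1.

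**Figure D2:**
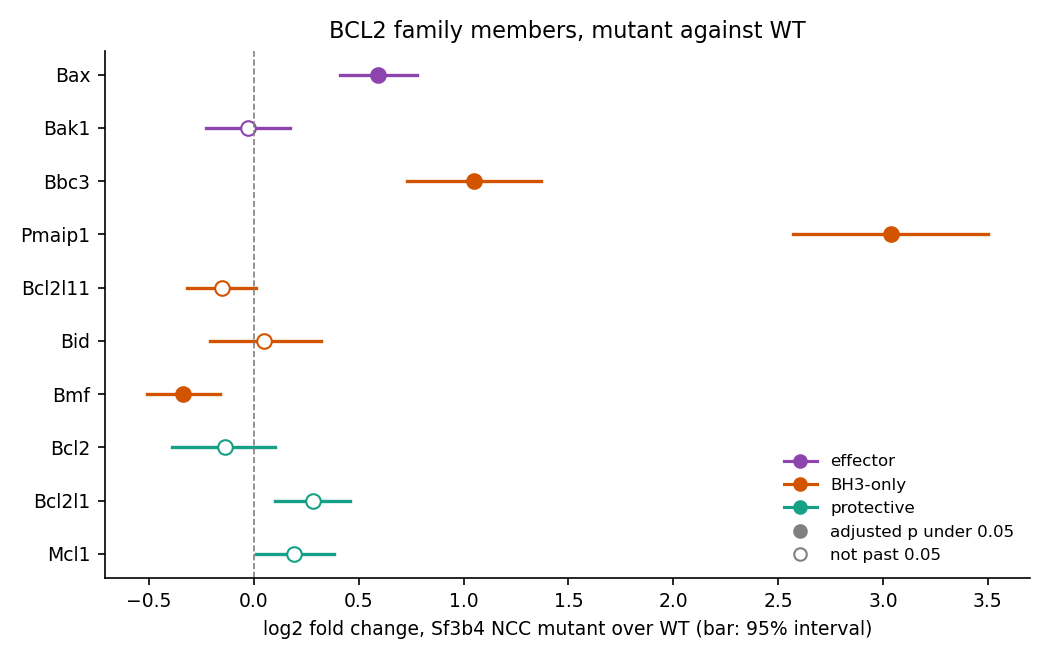
Log2 fold change of each member (Sf3b4 NCC mutant over WT, 3 pools each) with its 95% interval, coloured by role. Filled points passed an edgeR adjusted p of 0.05, and the values run from -0.34 for Bmf to 3.04 for Pmaip1.

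The protective members had log2 fold changes between -0.14 and 0.28. Bcl2l1 (ENSMUSG00000007659, mm10 chromosome 2, 152780668 to 152831728, minus strand), the gene of BCL-XL, had 60.4, 56.4 and 58.9 CPM in the mutant pools and 49.3, 49.6 and 46.1 CPM in wild type. All mutant pools were above all wild-type pools. The log2 fold change of 0.28 (SE 0.0830, 95% interval 0.10 to 0.46) missed the threshold (edgeR adjusted p = 0.0553). It passed once trends with exon length and GC were removed (0.0111) or once a term for Y-linked reads was fitted (0.0220), and its adjusted p ran from 0.0510 to 0.257 with 1 pool left out.

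Mcl1 (ENSMUSG00000038612, mm10 chromosome 3, 95658788 to 95663176, plus strand) encodes a short-lived protein that NOXA binding drives to degradation. It had 193, 186 and 181 CPM in the mutant pools, against 140, 172 and 179 CPM in wild type. The groups barely separated, and wild-type replicate 1 lay apart from the other 2. The log2 fold change was 0.19 (95% interval 0.01 to 0.38, edgeR adjusted p = 0.2). Leaving out wild-type replicate 1 gave 0.09, and the 4 pools holding Y-linked reads gave 0.11. Mcl1 ends 509 kb before Sf3b4 on the same chromosome.

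Bcl2 (ENSMUSG00000057329, mm10 chromosome 1, 106538178 to 106714274, minus strand), the founding member, had 25.3, 24.4 and 20.9 CPM in mutants, against 23.0, 29.2 and 26.4 CPM in wild type. The groups overlapped, and the log2 fold change was -0.14 (95% interval -0.39 to 0.10, edgeR adjusted p = 0.499). Bcl2l1, Mcl1 and Bcl2l11 each give spliced forms with different activity, and counts per gene do not separate them.

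Per kb of exon, the order of the members changed mainly through Pmaip1. Mcl1 was the highest member in both genotypes, at 54.7 ± 1.77 CPM per kb in mutants and 47.9 ± 6.02 in wild type, followed by Bax at 38.0 ± 3.04 and 25.2 ± 0.547 (SD, n = 3 pools each). Pmaip1 held rank 5 of 10 in mutants, at 13.5 ± 3.64 CPM per kb, and rank 10 in wild type, at 1.66 ± 0.0847. In mutants its pools overlapped those of its neighbours Bmf and Bcl2l1, while in wild type it lay below Bcl2, the next gene up, in every pool. In mutants Bbc3 overlapped both its neighbours, Bcl2l11 above and Bid below, while Bcl2l11 (7.55 to 8.09 CPM per kb) lay above Bid (6.24 to 6.94) in every pool. In wild type, Bak1 overlapped Bmf, and Bbc3 overlapped Bcl2. Merged exon lengths run from 1576 bases in Bax to 9157 in Bcl2, so genes with long or variable 3′ ends are read lower on this scale. The order depends on the length used. With the longest transcript as length, log2 Bax over Mcl1 was -0.01 ± 0.08 in mutants and -0.4 ± 0.19 in wild type. Bax and Mcl1 were then level in mutants. On that scale Pmaip1 over Mcl1 was -2.06 ± 0.4 in mutants and Bcl2l1 over Mcl1 was -1.26 ± 0.05. Pmaip1 then lay below Bcl2l1.

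**Figure D3:**
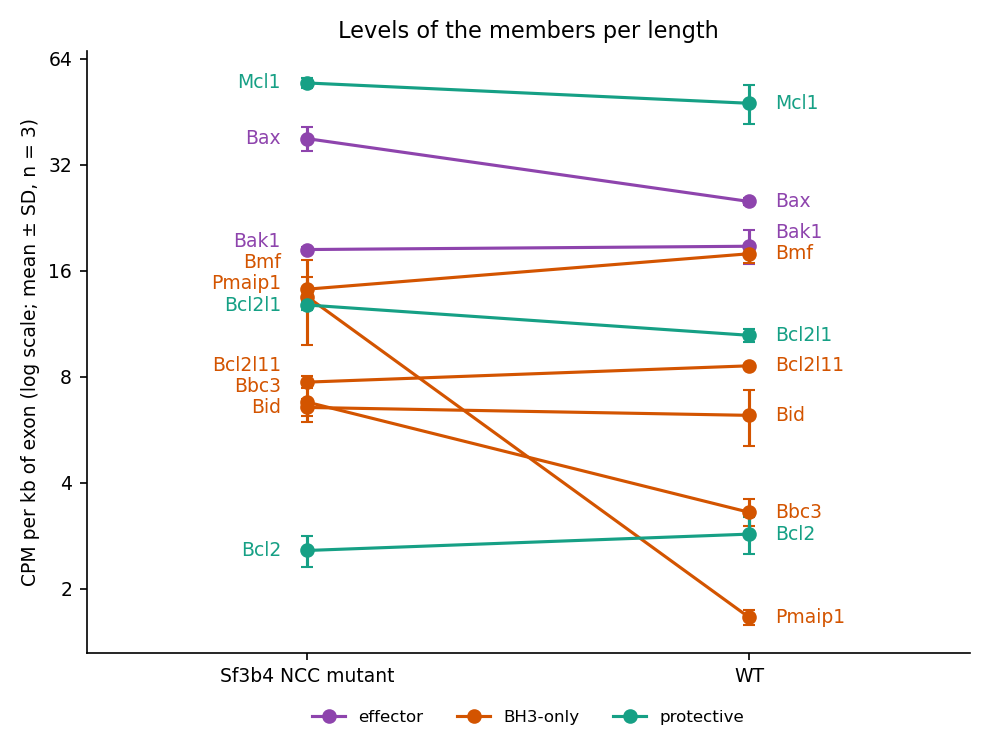
Mean level of each member per kb of exon (CPM per kb on a log axis, mean ± SD, n = 3 pools) in Sf3b4 NCC mutant and WT heads, with lines joining the same gene. Mcl1 and Bax lead in both genotypes, and Pmaip1 stands at 13.5 in mutants and 1.66 in WT.

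The make-up of the BH3-only class differed with it. Pmaip1 made 27.4 ± 6.02% of the class's summed level per kb in mutants and 4.42 ± 0.433% in wild type, and Bbc3 made 13.9 ± 1.13% and 8.75 ± 0.601%. Bmf, the largest BH3-only transcript pool in wild type, made 29.4 ± 4.33% in mutants and 47.6 ± 1.02% in wild type, and Bcl2l11 made 15.9 ± 0.87% and 22.8 ± 1.40%. A higher level of Pmaip1 by itself lowers the shares of the other members, and Bcl2l11 itself was not called. Shares depend on the length used, and they were not computed with the longest transcript. The summed BH3-only level was 50.4, 50.5 and 45.4 CPM per kb in mutant pools, against 39.8, 36.1 and 37.2 in wild type, 1.29 times as high in the mean. Of the difference of 11.1 CPM per kb, Pmaip1 alone gave 11.8, Bbc3 3.48 and Bid 0.332, against -0.864 from Bcl2l11 and -3.70 from Bmf. The effector sum was 1.28 times as high and the protective sum 1.14 times as high (70.0 ± 2.23 in mutants and 61.3 ± 6.07 CPM per kb in wild type). Of the effector difference of 12.5 CPM per kb, Bax gave 12.8 and Bak1 -0.323. Of the protective difference of 8.7, Mcl1 gave 6.76, Bcl2l1 2.24 and Bcl2 -0.295. Wild-type replicate 1 had the lowest protective sum, at 54.3 against 64.3 and 65.3 in the other wild-type pools. All 3 sums separated the genotypes. Without division by length the BH3-only sums overlapped, at a ratio of 1.07.

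Ratios within a pool do not depend on library scaling. Of the 10 pairs compared, 9 separated all mutant from all wild-type pools, each with an exact two-sided permutation p of 0.1, the smallest that 3 against 3 pools can give, and 0.111 after Benjamini-Hochberg adjustment. The pairs were chosen with the single-gene results known, 7 of the 10 contain Bax, Bbc3 or Pmaip1, and the share of other gene pairs that separate was not computed, so the count adds little to the calls of those 3 genes. Bax over Bcl2 was 14.5, 14.8 and 15.2 in mutants, against 10.1, 7.72 and 8.91 in wild type. The mutant pools were close together and all higher, by 0.74 on the log2 scale. Bax over Bcl2l1 differed by 0.31 and Bax over Mcl1 by 0.39.

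Protein was not measured, so all ratios here are of transcripts. Pmaip1 over Mcl1, the gene of the protein that NOXA chiefly binds, showed the largest contrast of the 10 pairs. The ratio was 0.274, 0.288 and 0.175 in mutant pools and 0.0388, 0.0350 and 0.0313 in wild type, 6.87 times as high. Bcl2l11 over Mcl1 was lower in every mutant pool, by 0.35 on the log2 scale. Bmf over Bbc3 was 1.77, 2.04 and 2.60 in mutants, against 5.36, 5.23 and 5.75 in wild type, so the balance of these BH3-only transcripts was lower by 1.37 on the log2 scale (a difference of -1.37). Bbc3 over Bcl2l1 was higher by 0.76 in mutants. Among protective genes, Bcl2 over Bcl2l1 differed by -0.43, while Bcl2l1 over Mcl1 overlapped between genotypes (difference 0.08, exact permutation p = 0.6 before and after adjustment).

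**Figure D4:**
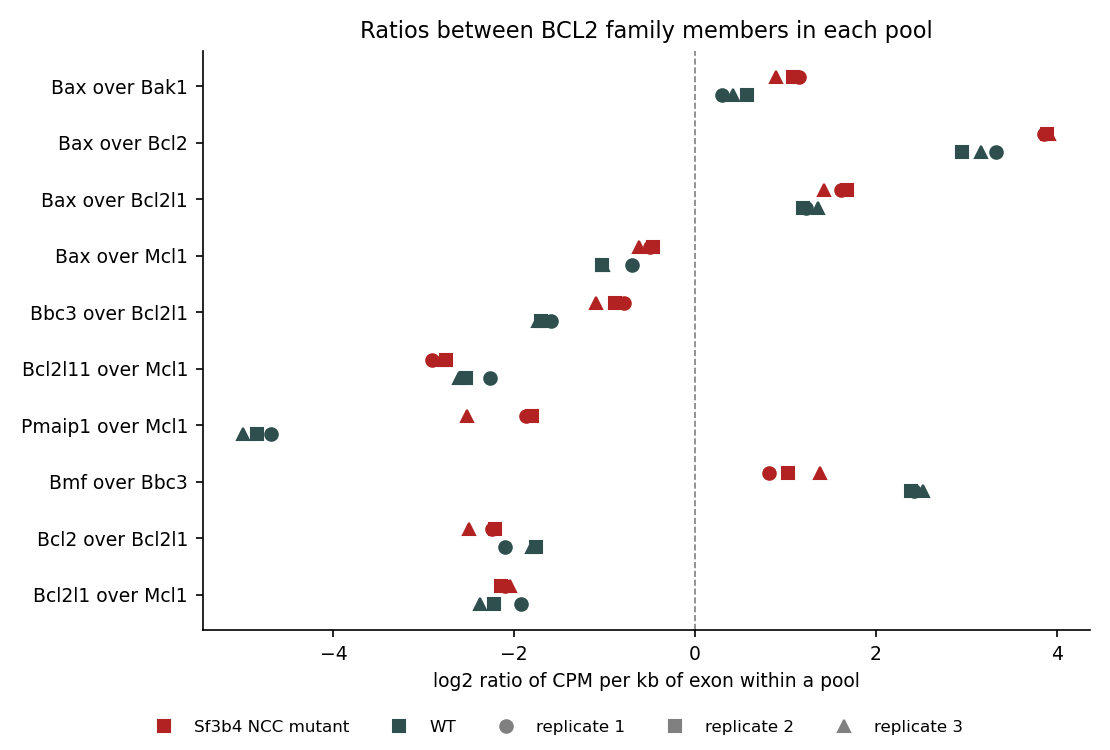
Log2 ratio of CPM per kb of exon between pairs of members within each pool, for the 3 Sf3b4 NCC mutant and 3 WT pools. In 9 of 10 pairs the mutant pools lie entirely to one side of the WT pools, the exception being Bcl2l1 over Mcl1.

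No call was made in the wider BCL2 family. Of 16 further family genes, 10 were tested and none rose or fell by edgeR, with a median log2 fold change of 0.01. Of those 10, 1 had an unadjusted p under 0.05, against 23.2% of all tested genes. It was Bcl2l2, another protective gene, and DESeq2 and limma-voom called none of the 10 either. Bcl2l2 had 16.9, 15.3 and 14.6 CPM in mutants, against 19.1, 19.1 and 19.6 CPM in wild type, lower in every mutant pool but short of the threshold (log2 fold change -0.30, edgeR adjusted p = 0.129). Bcl2l2 shares 13.3% of its exonic bases with a same-strand gene model, Gm20521. Bnip3l, which encodes a mitophagy receptor, had a log2 fold change of 0.18 (edgeR adjusted p = 0.248) and passed only without wild-type replicate 3 (0.30). The BH3-only genes Bad, Bik and Hrk had log2 fold changes of 0.01, 0.15 and 0.45, none past the threshold, and the effector relative Bok had 0.14. Bcl2a1a, Bcl2a1b and Bcl2a1d, near-identical protective genes, were listed at 0 in every pool, where a count of 0 allows up to 3 counts, or 0.246 to 0.424 CPM. Reads shared among such copies may not have been counted.

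Downstream of the mitochondrion, 1 of 16 tested genes rose and none fell, beside the same shares of 2.65% and 3.88% over all tested genes. Over these 16 genes the log2 fold changes had a median of 0.07. The apoptosome genes Apaf1 (0.12) and Casp9 (-0.10), Cycs for cytochrome c (0.19) and the IAP genes Xiap (0.20), Birc2 (0.03) and Birc3 (0.07) did not pass. Vdac2, whose product restrains BAK1, had 0.10. The count of the list was 4 without wild-type replicate 3.

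Among 16 genes that act on the family from upstream, 14 were tested, 3 rose and 1 fell, where 2.65% of all tested genes rose and 3.88% fell. Trp53, the gene of p53 itself, had 164, 161 and 153 CPM in mutants, against 155, 144 and 147 CPM in wild type, and its log2 fold change of 0.10 (95% interval -0.05 to 0.25) did not pass (edgeR adjusted p = 0.427). Mdm2, a p53 target that encodes its ligase, rose by 0.80. Foxo3, a forkhead factor known to drive Bcl2l11 and Bbc3, rose by 0.70 (SE 0.0920, edgeR adjusted p = 0.000298), at 73.3, 70.4 and 60.3 CPM in mutants and 43.6, 41.3 and 40.9 CPM in wild type. All mutant pools of Foxo3 stood above wild type.

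March5, a ubiquitin ligase of the outer mitochondrial membrane, rose by 0.38 (edgeR adjusted p = 0.0202), and without any 1 mutant pool the value was 0.37 to 0.40 but the call was lost (adjusted p 0.0571 to 0.0976 by edgeR). Huwe1, a ligase of MCL1 and of p53, fell by 0.37 on the log2 scale (edgeR adjusted p = 0.02). That call did not survive leaving out mutant replicate 1, mutant replicate 3 or wild-type replicate 2 (-0.36, -0.29 and -0.33 in that order, adjusted p 0.0835 to 0.117 by edgeR), nor restriction to the 4 pools holding Y-linked reads (-0.30). Once trends with exon length and GC were removed Huwe1 stood at -0.10. Fbxw7 (0.17) and the deubiquitinase gene Usp9x (-0.05), which also act on MCL1, did not pass. Dynll1 and Dynll2, whose dynein light chains tether BIM and BMF, had 0.20 and 0.03. Without mutant replicate 1 or mutant replicate 3 the list held 2 calls.

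**Figure D5:**
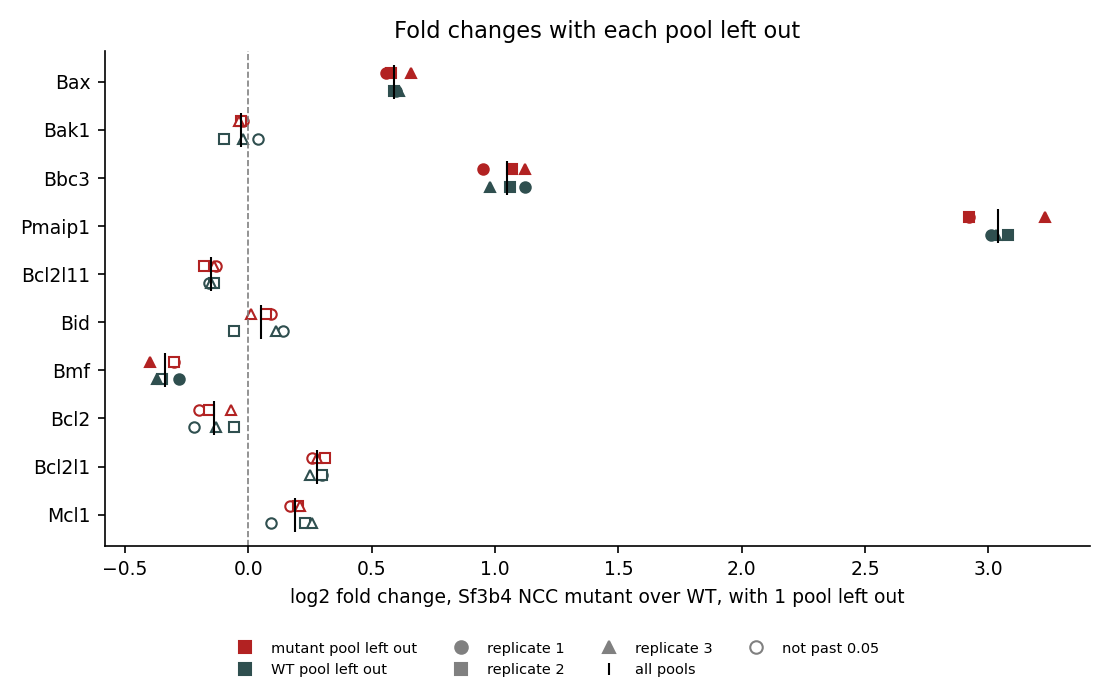
Log2 fold change of each member (Sf3b4 NCC mutant over WT) with 1 pool left out in turn, coloured by the genotype of the pool left out, with the value from all 6 pools as a black bar. Pmaip1 stays between 2.92 and 3.23, Bbc3 between 0.95 and 1.12 and Bax between 0.56 and 0.66, while Bak1 (-0.10 to 0.04) and Bid (-0.06 to 0.14) change sign, never past the threshold.

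The genes most like Pmaip1 over the 6 pools were Ddit4l, Slc19a2, Ccng1, Trp53inp1 and Cdkn1a. Likeness was the root mean square difference of log2(CPM + 1) after each gene was centred on its mean, and it ran from 0.155 for Ddit4l to 0.334 for Cdkn1a. Each had its lowest mutant value in replicate 3, as Pmaip1 did, which choosing genes by likeness to Pmaip1 largely fixes in advance. Ddit4l had 22.4, 23.0 and 14.8 CPM in mutants, against 1.39, 1.70 and 1.55 CPM in wild type, and Cdkn1a had 26.2, 26.1 and 12.7 CPM in mutants, against 0.741, 1.55 and 1.29 CPM in wild type.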

How the data were processed

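Total RNA from 6 pools of embryo heads was sequenced, and the deposited values are raw counts per Ensembl gene ID, whole numbers with no normalization. Per the submitters' processing notes the build is mm10. The sources used here give no aligner, counting program or strand setting. Of 54532 IDs, 54495 matched GENCODE M21, which gave symbols, positions and exon lengths. Pools were grouped by title. The labels do not state separate litters, so p-values measure the spread between these pools.

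Genes were kept with filterByExpr (14008), scaled by TMM and tested with edgeR 4.0.16 in R 4.3.3 (glmQLFit with robust estimation, two-sided, adjusted p under 0.05). SE is the log2 fold change over the root of F. Alternatives used DESeq2 1.42.0, limma 3.58.1, other scalings, filters and covariates, and each pool left out. On simulated counts over 13837 genes, 68.7% of genes changed 1.5-fold and 97.0% of those changed 2-fold were recovered. Changes were planted only in genes with a mean above 5 CPM, so recovery of fainter genes was not measured. In that simulation 18 of 195 calls were false, a larger share than the 0.05 aimed at. The members, lists and rule for named genes (all members, list genes that passed or else the 2 with smallest p, and the 5 nearest to the member with the smallest p) were chosen with earlier results of these data known. Further list genes in the text are examples picked with their values known. Some list genes are not reported here by name but stay in the counts. Counts of like pools differed beyond counting error (chi-square over its degrees of freedom 3.01 to 10.2).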

Additional observations from a re-analysis of the deposited data

How the results depend on the processing

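Over the 10 members, 161 of 170 alternative values kept their direction and side of the threshold. The filter of at least 1 CPM in at least 3 pools kept 14008 genes, as the main filter did. It repeated the main value of every member, so those matches add nothing to the tally. Bak1 turned to 0.03 in the 4 pools holding Y-linked reads and ran from -0.10 to 0.04 with 1 pool left out, and Bid from -0.06 to 0.14, never past the threshold. Leaving out 1 pool moved Bmf between -0.40 and -0.28 and lost its call in 3 of 6 cases. Bcl2l1 passed at 0.28 and Mcl1 at 0.21 with the Y-linked covariate, and Bcl2l1 at 0.32 with the length and GC correction. Members called numbered 3 to 6. Genome-wide calls were 914 in all, 535 in those 4 pools, 1804 with that covariate, 1550 at a threshold of 0.1, and 230 (without mutant replicate 1) to 1810 (without wild-type replicate 3) with 1 pool left out. They were 367 without wild-type replicate 2, and 392 and 443 without mutant replicates 2 and 3. The length and GC correction gave 603 higher and 564 lower genes, against 371 and 543. With 1 pool left out, calls ran from 0 to 1 in the other BCL2 genes, 1 to 4 downstream and 2 to 5 upstream, and the downstream list held 2 at a threshold of 0.1. Bcl2l1 over Mcl1 ran from -0.02 (without wild-type replicate 3) to 0.20. With the longest transcript as length, class sums in mutants and wild type were 73.1 and 55.1 (effectors), 59.5 and 48.7 (BH3-only), and 80.7 and 70.4 CPM per kb (protective). Where no cause is shown by the alternative's construction, the cause was not tested. Replicate numbers did not pair the pools (correlations of deviations -0.165, 0.0466 and -0.0637). The largest correlation across genotypes, 0.277, was between mutant replicate 3 and wild-type replicate 1, both nearly without Y-linked reads. With the replicate number as a block the same 3 and 1 members were called, 268 genes rose and 426 fell, and the ratios had a paired exact p of 0.25 at the smallest. Alternatives for the ratios and class sums with 1 pool left out, and for the other lists, were chosen after seeing the data. Depth limits Bbc3 and Pmaip1 in wild type, with 34 to 82 reads per pool.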
